A study of Drosophila melanogaster with 2 samples.

Results

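The genes described here are 10 components of the bone morphogenetic protein (BMP) pathway of the fly, taken by name from the Ensembl annotation of the Drosophila melanogaster genome out of 13945 protein-coding genes on the chromosome arms. They are the ligands dpp and gbb, the receptors tkv, sax and put, the transducers Mad and Med, the inhibitor Dad, the nuclear cofactor shn and the repressor brk. The rule that names them uses no measured value, but they were chosen with earlier results of these data known. Peaks of the transcription factor Ovo were placed at each gene by chromatin immunoprecipitation followed by sequencing (ChIP-seq). The flies were whole adult females of unstated age from 1 transgenic line that stably carries Ovo with green fluorescent protein (GFP) at its C terminus. DNA was recovered with an antibody against GFP in 2 biological replicates, numbered 1 and 4, which form 1 group, so no condition could be compared. The labels give no genetic background beyond the tagged line and no number of flies per replicate, and in whole animals the tissue that gave a peak cannot be told apart.

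BMP ligands are secreted proteins that bring together type I receptors (Tkv and Sax) and a type II receptor (Put). The activated type I receptor phosphorylates Mad, which joins Med, enters the nucleus and acts with the zinc-finger protein Shn on target genes. In the ovary, Dpp and Gbb from somatic niche cells act on the germline stem cells beside them, and the response in those cells silences the differentiation gene bam. Dad is an inhibitory Smad that the pathway itself induces, and Brk is a repressor of BMP target genes that the pathway keeps off. Ovo is a zinc-finger factor required in the female germline.

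Each peak carries a summit position and the authors' score, an enrichment value against a control whose scale is not stated. It is used here only to describe and rank peaks within a list. The thresholded list held 4477 peaks with scores from 74.9 to 1349.4 and a median of 116.1. The pooled list and the relaxed list of each replicate held 30000 peaks each and run down to weak background peaks. At ovo itself, the tagged gene, 2 thresholded summits lay within 500 bp of a transcription start site (TSS), the better at rank 132. Read depth is unknown, and a precipitation from untagged flies was not analysed here.

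In the thresholded list, 3 of the 10 genes had a summit within 500 bp of a TSS, namely tkv, Dad and shn, where 23.5% of all protein-coding genes had one. Introns of 5 of the 8 genes that have any held a summit (tkv, put, Mad, Dad and shn), where 9.61% of genes with an intron had one. Counting the gene and 5 kb on either side, 9 of 10 genes had a summit, all but dpp, beside 49.7% of all genes. The members were long, with a median span of 10.1 kb against 2.17 kb over all genes, and a longer gene offers more room for a summit. The count at TSSs was near the share of all genes, while the counts in introns and within 5 kb were above it; no test was made of either, since the genes were picked with results of these data known.

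The sequences under peaks of a receptor, a transducer, the inhibitor and the repressor show what these summits hold. For Mad, Dad and brk the peak is the strongest of its role; the strongest receptor peaks lie beside sax and are not printed here, so that of tkv is shown. Each is 101 bases of dm6 centred on a summit and written on the plus strand, 5′ to 3′. Capitals mark a stretch closest to the Ovo core site TAACNGT on either strand. Other stretches of a window can be as close, as they are in the tkv, Mad and brk windows. The tkv peak (chr2L:5256532-5256632), the Mad peak (chr2L:3158703-3158803) and the Dad peak (chr3R:17065377-17065477) lie in introns, and the brk peak (chrX:7306936-7307036) lies upstream of the gene. In tkv the marked stretch keeps 4 of the 6 fixed bases of the site, and in the others it keeps 5 of 6.
tkv intron: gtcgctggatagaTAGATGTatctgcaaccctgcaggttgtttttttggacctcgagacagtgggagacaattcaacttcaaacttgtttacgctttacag
Mad intron: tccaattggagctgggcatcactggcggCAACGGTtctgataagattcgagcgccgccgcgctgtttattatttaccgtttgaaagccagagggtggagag
Dad intron: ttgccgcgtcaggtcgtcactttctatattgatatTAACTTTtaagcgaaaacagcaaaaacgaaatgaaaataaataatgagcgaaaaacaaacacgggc
brk upstream: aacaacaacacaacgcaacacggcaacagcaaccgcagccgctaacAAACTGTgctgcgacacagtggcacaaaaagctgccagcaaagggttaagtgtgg
None of these 4 windows holds the whole site. The site was complete under 2 thresholded summits that are not printed here, in the flanks of sax (score 191.5, rank 865) and shn (score 86.0, rank 3671). The complete sites shown here lie under summits of the pooled list below the threshold. One lies in a tkv intron (chr2L:5227645-5227745, score 36.2, rank 12053), with the site on the minus strand, and had rank 13090 in replicate 4 but no summit within 100 bp in replicate 1. The other lies past the end of Mad inside the neighbouring gene toc (chr2L:3143976-3144076, score 52.7, rank 7235).
tkv intron, below the threshold: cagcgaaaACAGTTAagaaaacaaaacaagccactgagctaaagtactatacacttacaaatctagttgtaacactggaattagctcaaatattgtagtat
Mad downstream, below the threshold: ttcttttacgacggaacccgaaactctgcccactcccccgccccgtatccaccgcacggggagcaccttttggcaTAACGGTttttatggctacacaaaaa

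**Figure D1:**
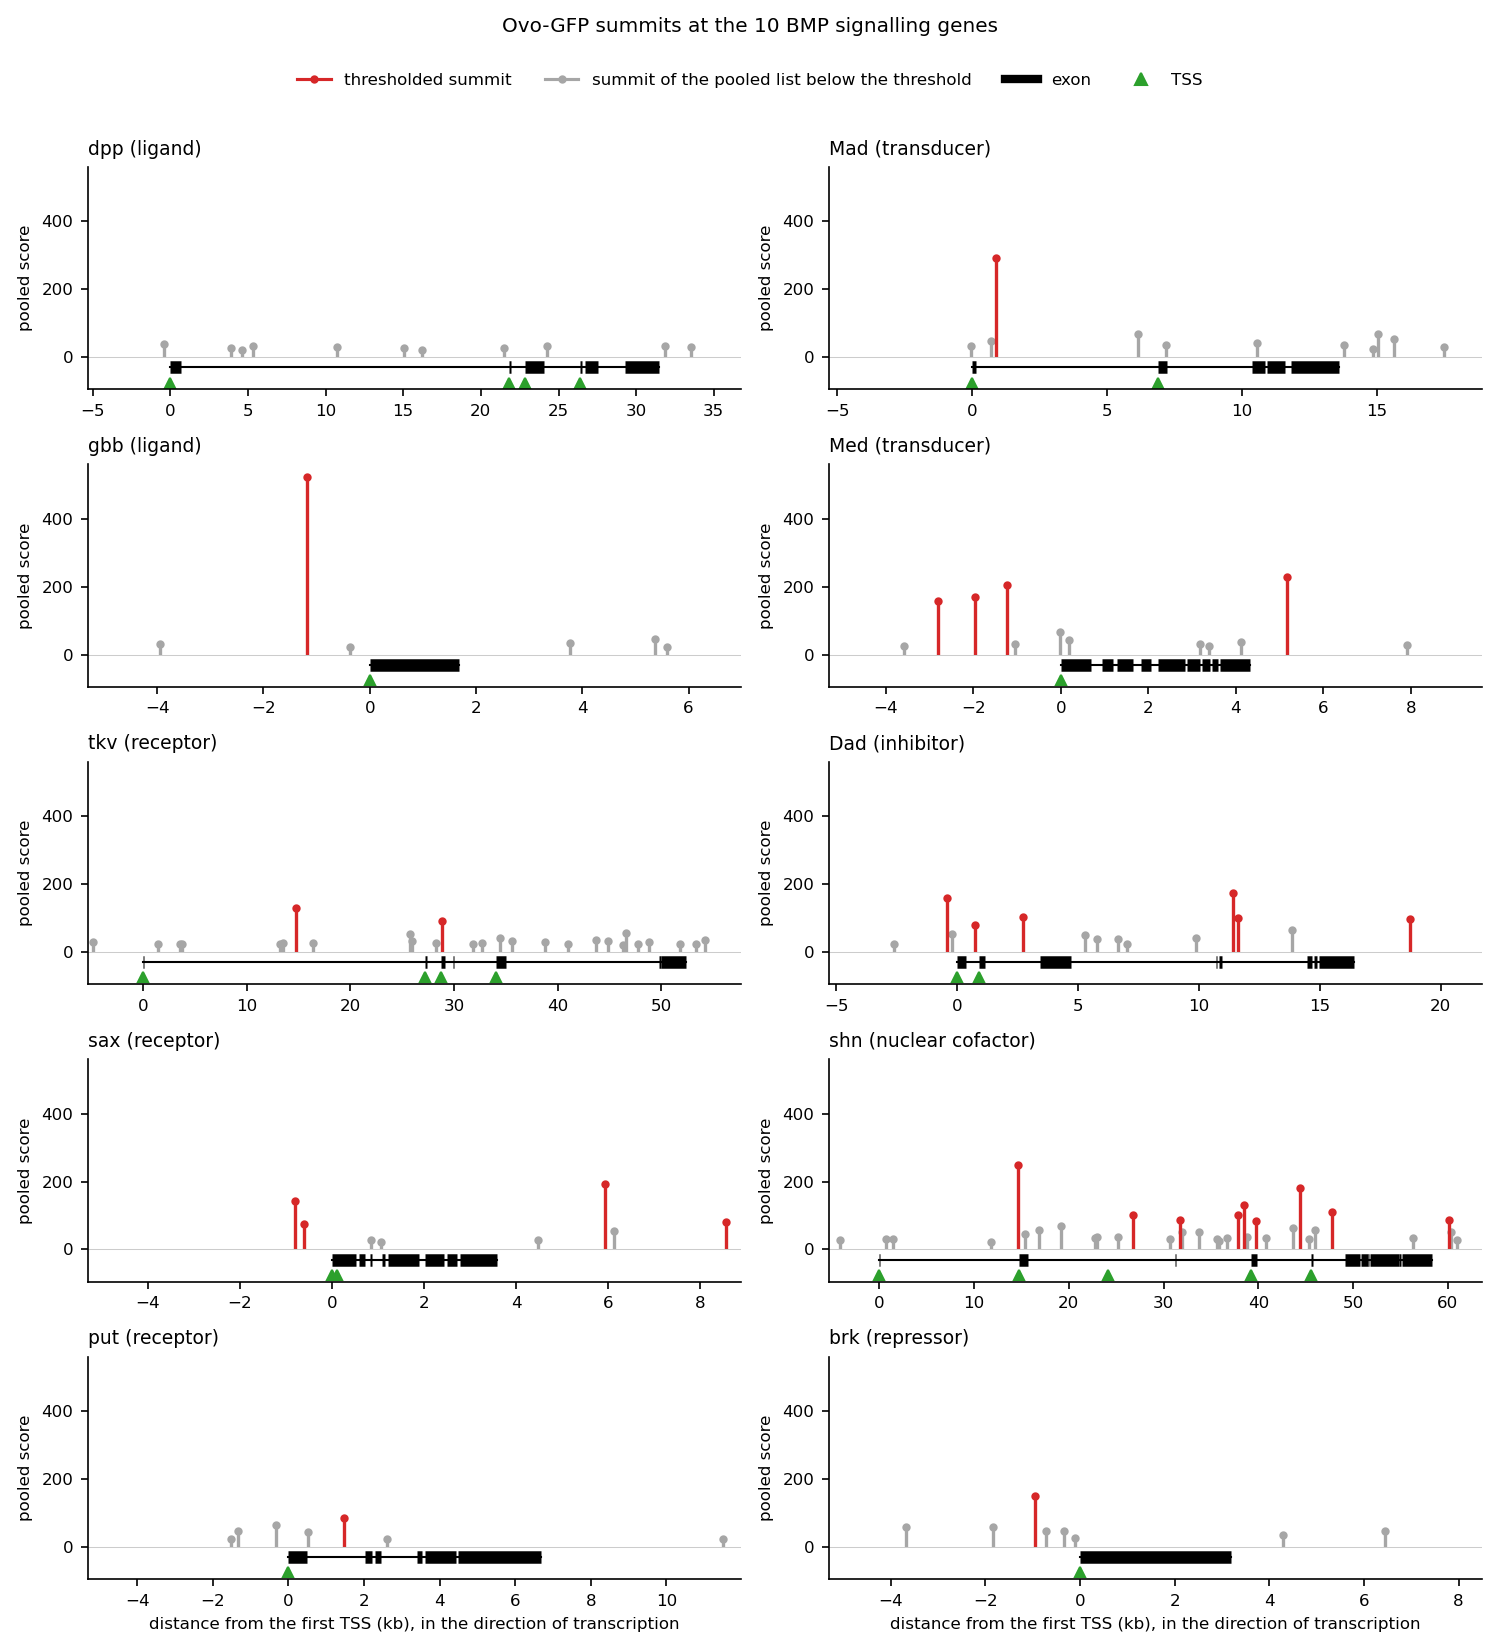
Pooled score of each summit (vertical axis, authors' units) against distance from the first TSS in kb along transcription (horizontal axis), with 1 panel for each of the 10 genes. Red stems are the 29 thresholded summits, grey stems are 108 summits of the pooled list below the threshold, black blocks are exons and green triangles are TSSs; gbb has the tallest stem (523.5), outside the gene, and dpp has no red stem.

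The ligand genes had no thresholded summit at their own TSSs. The gene dpp (FBgn0000490; dm6 2L, 2428372 to 2459823, plus strand, 4 TSSs) encodes the main BMP ligand and spans 31.5 kb. Within it and 5 kb to either side lay 11 summits of the pooled list, all below the threshold, 8 of them in introns. The best at a TSS scored 38.9 (rank 10861) at -380 bp, and a TSS of the non-coding gene lncRNA:CR44912 lies 111 bp from it. The replicates ranked their best dpp TSS summit at 25481 (replicate 1, score 11.5) and 7881 (replicate 4, score 28.5), so it was weak in both. Its best intronic summit scored 33.0 (rank 13887). The nearest thresholded summit lay 5952 bp past the end of dpp, at 2465775 (score 79.6, rank 4109), and no protein-coding TSS was nearer to it than that of dpp, 11038 bp away.

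The gene gbb (FBgn0024234; 2R, 23851562 to 23853247, plus strand) encodes the second ligand and has no intron. The highest score of any member lay beside it: 523.5, rank 48, with rank 69 in replicate 1 (score 204.4) and rank 35 in replicate 4 (score 318.8). The summit at 23850374, in a peak from 23850268 to 23850531, lay at -1188 bp from the gbb TSS (negative distances are upstream). It was 73 bp from the TSS of eIF6, a factor of ribosome assembly, and also within 500 bp of the antisense RNA gene asRNA:CR45928. The best pooled summit within 500 bp of the gbb TSS scored 23.0 (rank 26655), replicate 4 ranked it at 28189 and replicate 1 had none. It lay at -373 bp from that TSS and was nearer to the TSS of ytr, 116 bp away. The gbb locus therefore counted within 5 kb through a peak at a neighbour's start.

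Of the receptor genes, tkv was the one with a thresholded TSS summit. The gene tkv (FBgn0003716; 2L, 5219000 to 5271384, minus strand) encodes a type I receptor, spans 52.4 kb and starts at 4 TSSs. The TSS at 5242620 had a summit 35 bp inside the gene (peak 5242365 to 5242804, score 91.9, rank 3308), in an annotated UTR. It had rank 3659 in replicate 1 (score 39.4) and 3300 in replicate 4 (score 52.9), close to each other and in the weaker part of the thresholded list. A TSS of the gene CR14033 also lies within 500 bp. The stronger tkv summit was the intronic one printed above (peak 5256362 to 5256801, score 129.4, rank 1872), with rank 2152 in replicate 1 (score 53.6) and 1719 in replicate 4 (score 77.0). It lay at -12443 bp from the nearest tkv TSS, and the closest coding TSS was that of Cyp4ac1, a cytochrome P450 gene, at 7419 bp. A further 25 summits of the pooled list at tkv stayed below the threshold.

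The gene sax (FBgn0003317; 2R, 7806484 to 7810067, plus strand), the other type I receptor, had 4 thresholded summits nearby and none inside. Upstream, summits at 7805670 (score 142.2, rank 1587) and 7805871 (score 75.9, rank 4376) lay at -814 and -613 bp from the nearest sax TSS, and 104 and 305 bp from the TSS of Nop17l. Their peak intervals overlap, so they may not be separate sites. Past the end of sax, the summit at 7812413 (score 191.5) had rank 865, with ranks 1268 and 773 in replicates 1 and 4, and lay 91 bp from the TSS of puml and within 500 bp of that of TTLL12. The fourth, at 7815047 (score 79.9, rank 4082), lay inside puml. No summit of the pooled list or of replicate 4 fell within 500 bp of a sax TSS, and replicate 1 had one of rank 25587 (score 11.5).

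The gene put (FBgn0003169; 3R, 14619030 to 14625703, minus strand) encodes the type II receptor that the pathway shares with activin signalling. It had 1 thresholded summit, in an intron 1466 bp inside the gene (peak 14624017 to 14624456, score 84.1, rank 3804). The replicates differed there, with rank 2930 in replicate 4 (score 56.8) and no summit within 100 bp in replicate 1, whose nearest lay 131 bp away at rank 6530. The best put TSS summit stayed below the threshold at -324 bp (score 63.1, rank 5707), and replicates 1 and 4 placed theirs at ranks 5478 and 7462. It was nearer to the start of His4r, a histone H4 gene, which lies 239 bp away.

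Both transducer genes lacked a thresholded TSS summit. The gene Mad (FBgn0011648; 2L, 3146056 to 3159643, minus strand) encodes the receptor-regulated Smad of the pathway. It had the highest score of any summit inside a member gene: 293.1, rank 292, in an intron 890 bp inside the gene (peak 3158533 to 3158972). Replicate 1 ranked it at 204 (score 145.1) and replicate 4 at 414 (score 146.5), so it was among the strong peaks in both. At the Mad TSSs the best pooled summit scored 35.0 (rank 12649) and lay 303 bp inside the TSS at 3152753. At that start replicate 1 had rank 12825 (score 17.1) and replicate 4 had rank 16878 (score 17.6). The best TSS summit of replicate 4 was at the other start, 3159643 (rank 5148, score 38.7, at -28 bp). The pooled summit there (score 32.2, rank 14514) was also within 500 bp of a gkt TSS.

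The gene Med (FBgn0288966; 3R, 31611046 to 31615375, plus strand) encodes the common Smad partner of Mad. It had 4 thresholded summits within 5 kb and none inside. The 3 upstream summits scored 204.6 (rank 735), 170.9 (rank 1106) and 158.8 (rank 1274), at -1241, -1972 and -2806 bp from the Med TSS. Replicate 1 ranked them at 675, 928 and 1004, and replicate 4 at 853, 1376 and 1604, in the same order. All of them lay in CycG, the cyclin G gene, the first only 10 bp from its TSS. The summit past the end of Med (31616218, score 227.2) had rank 565, with ranks 447 and 743 in replicates 1 and 4, and lay 58 bp from the TSS of Mnat9 and within 500 bp of that of CG1792. At the Med TSS itself the pooled summit at -26 bp, also within 500 bp of a CycG TSS, scored 66.2 (rank 5327), below the threshold. Replicate 1 placed its best one at rank 3561 (score 40.2) and replicate 4 at rank 9243 (score 25.5).

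The inhibitor Dad and the cofactor shn carried most of the summits inside member genes. Dad (FBgn0020493; 3R, 17054007 to 17070408, plus strand) had 6 thresholded summits. One at each of its 2 TSSs was present: that at 17053569 (-438 bp) scored 159.7 (rank 1262), with rank 792 in replicate 1 (score 88.3) and 1733 in replicate 4 (score 76.6). The one at 17054726 (-171 bp from the second TSS) scored 79.2 (rank 4137), with ranks 4112 and 5086. The strongest Dad summit was intronic, at 17065427 and 10530 bp past a Dad TSS (score 174.5, rank 1053), with rank 1042 in replicate 1 (score 78.9) and 1385 in replicate 4 (score 87.1). A second intronic summit at 17065626 (score 101.0, rank 2867) belongs to an overlapping peak. A separate intronic summit lay at 17056716 (score 103.0, rank 2761), 1819 bp past a Dad TSS, with ranks of 2477 and 3011 in replicates 1 and 4. The sixth summit, past the end of the gene (score 96.2, rank 3074), was 17 bp from the TSS of mRpS11, a mitochondrial ribosomal protein gene, and within 500 bp of that of Ns1.

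The gene shn (FBgn0003396; 2R, 11159086 to 11217394, plus strand), the longest member at 58.3 kb with 5 TSSs, had 9 thresholded summits. The strongest lay at -58 bp from its TSS at 11173803 (peak 11173525 to 11173964, score 249.6, rank 441) and ranked 285 in replicate 1 (score 131.3). In replicate 4 the nearest summit within 100 bp had rank 4587 (score 42.2), while a summit 101 bp away had rank 611. Of the 3283 genes with a thresholded TSS summit, 384 (11.7%) had a higher best score than shn, 1115 (34.0%) a higher one than Dad and 2619 (79.8%) a higher one than tkv. The genes closest to shn in best TSS score were CG13876 and Gk1, which share a peak of score 249.67, and Rab5 at 249.48, beside 249.59 for shn. The summit at that TSS is itself intronic. More than 500 bp from a shn TSS, introns held 6 further summits, with scores from 86.6 to 180.9, the best at 11203491, at -1138 bp from the TSS at 11204629 (rank 973). It had rank 783 in replicate 4. In replicate 1 the summit within 100 bp had rank 4580, while one 109 bp away had rank 999. The other 5 intronic summits scored 129.6, 111.2, 101.8, 99.9 and 86.6. Replicate 1 ranked these 5 at 2253, 4596, 3796, 2485 and 4566, and replicate 4 ranked the first 4 of them at 1789, 2168, 2384 and 3625, the last having no summit within 100 bp there. Replicate 4 thus placed 3 of the 4 higher than replicate 1 did. An exonic summit at 11198824, in a UTR, scored 82.7 (rank 3893). The ninth, past the end of shn (11219251, score 86.0, rank 3671), was 10 bp from the TSS of CG9084 and within 500 bp of that of Syx6, a syntaxin gene.

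The repressor gene brk (FBgn0024250; X, 7307939 to 7311132, plus strand) is intronless and had 1 thresholded summit, at -953 bp from its TSS (peak 7306766 to 7307205, score 148.3, rank 1444). It had rank 1335 in replicate 1 (score 69.7) and 1634 in replicate 4 (score 80.1). No coding TSS was nearer than that of brk, although the position falls within the span of CG1677. The next thresholded summit on that side, 6783 bp upstream (score 90.9, rank 3360), was likewise nearest to the brk TSS. At the brk TSS the best pooled summit scored 46.0 (rank 8661), and the best of replicates 1 and 4 had ranks 7711 (at -110 bp) and 7640 (at -410 bp).

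**Figure D2:**
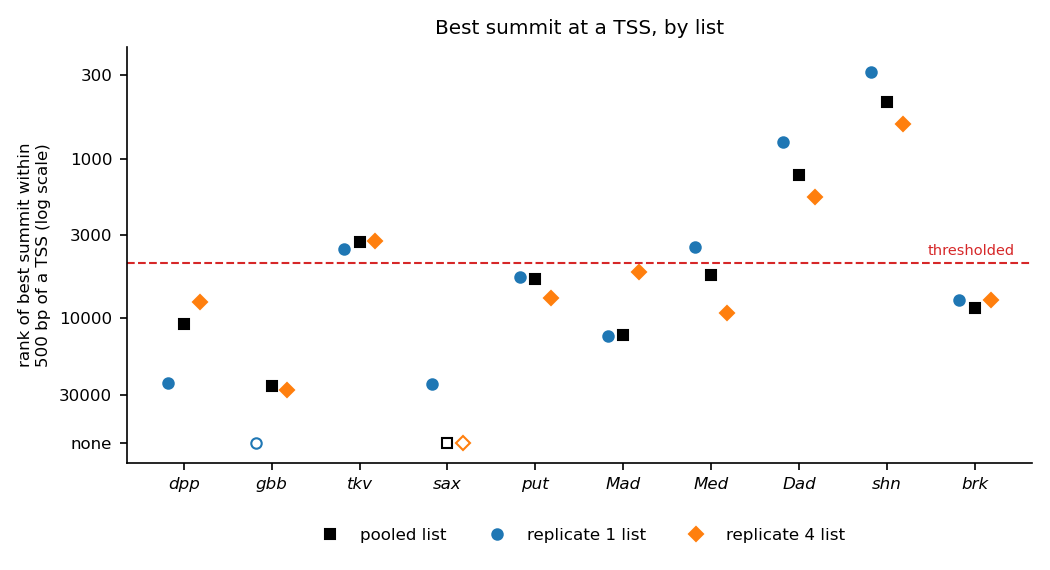
Rank by the authors' score of the best summit within 500 bp of any TSS of each gene (log scale, best ranks at the top), in the pooled list (squares) and in the relaxed lists of replicate 1 (circles) and replicate 4 (diamonds); open symbols mean that the list has none. The dashed line is the size of the thresholded list, 4477: tkv, Dad and shn lie above it in all 3 lists, Med only in replicate 1.

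Set side by side by role, the ligands had a thresholded TSS summit in 0 of 2 genes, the receptors in 1 of 3 and the transducers in 0 of 2. Within 5 kb the counts were 1 of 2, 3 of 3 and 2 of 2. An intronic summit was present in 0 of 1 ligand gene with introns (dpp), 2 of 3 receptors and 1 of 2 transducers. Over all protein-coding genes the shares were 23.5% at TSSs, 49.7% within 5 kb and, of genes with an intron, 9.61% in introns. With 2 or 3 genes in each role these counts cannot separate the roles. In the relaxed lists nearly every member was reached. At TSSs, 9 of 10 genes had a summit in the pooled list (54.8% of all genes), 9 in replicate 1 (54.8%) and 9 in replicate 4 (53.8%). The gene without one was sax in the pooled list and replicate 4, and gbb in replicate 1. In introns, 8 of 8 had one in the pooled list (30.2% of genes with an intron), 8 of 8 in replicate 1 (30.9%) and 6 of 8 in replicate 4 (29.9%), where sax and Med had none. Within 5 kb all 10 had a summit in each relaxed list, as did 91.8% of all genes in the pooled list, 91.8% in replicate 1 and 92.9% in replicate 4.

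The 29 thresholded summits within the 10 genes and 5 kb either side had a median score of 129.4. By position, 4 lay at a TSS (median score 125.8), 12 in introns away from a TSS (107.1), 1 in an exon, 7 in the upstream flank (158.8) and 5 in the downstream flank (96.2). The member's own TSS was the nearest coding one for 15 of the 29. For the upstream flank this held for 1 of 7, at brk, and for the downstream flank for 0 of 5. A TSS of another protein-coding gene lay within 500 bp of 8 of the 29. At gbb, sax and Med, all summits counted within 5 kb were thus nearer to other genes. Overlapping peak intervals formed 2 pairs among the members, at Dad and at sax, so the 29 peaks cover 27 separate regions. Over the whole thresholded list 374 pairs overlapped. Below the threshold the pooled list added 108 summits, from 25 at tkv and 24 at shn down to 5 at gbb and 4 at sax.

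Intron length was set against the number of summits. Introns of the members held 14 thresholded summits, 2 of them within 500 bp of a TSS, in 148.5 kb. That is 9.43 per 100 kb, beside 3.17 per 100 kb over the introns of all protein-coding genes (1869 summits). Away from TSSs the densities were 8.08 and 1.98. The density was uneven: 37.6 per 100 kb in put, which rests on 1 summit in 2.66 kb, 32.0 in Dad, 14.8 in shn, 9.83 in Mad and 2.09 in tkv. The Dad value rests on 4 summits in 12.5 kb. They include both summits of the overlapping pair and the TSS summit at 17054726, which is itself intronic. The long introns of dpp (26.2 kb) held none, nor did the short ones of sax and Med. Without shn and Dad, the density of the remaining members was 3.38, from 3 summits in 88.7 kb. None of the 3 lay within 500 bp of a TSS, so the same 3.38 stands beside 3.17 for all genes at any distance and beside 1.98 away from TSSs. With a single gene left out the density was 6.92 without shn, 7.35 without Dad, 11.5 without dpp and 12.9 without tkv. In the whole pooled list the members without shn and Dad had 41.7 per 100 kb, beside 23.9 over all genes.

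**Figure D3:**
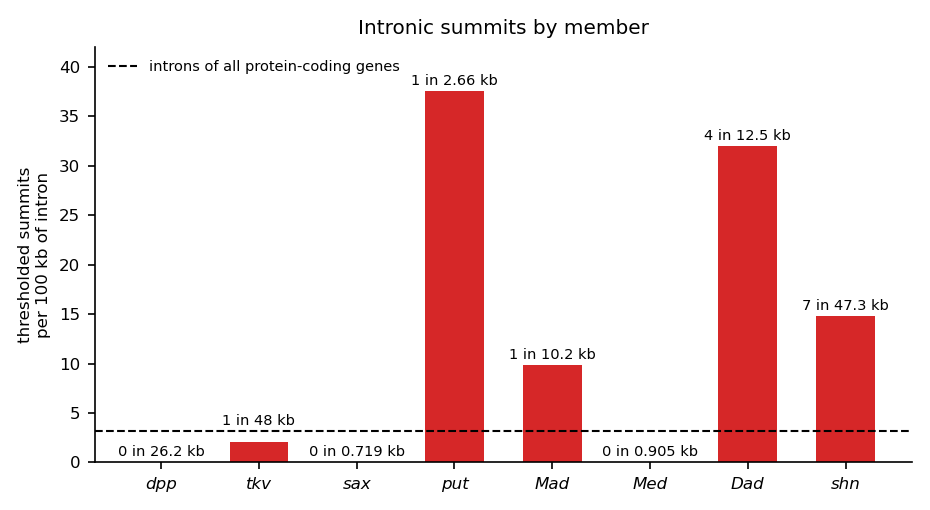
Thresholded summits per 100 kb of intron (vertical axis) in the 8 genes that have introns, with the number of summits and the intron length above each bar. The dashed line is the density over the introns of all protein-coding genes (3.17); put, Dad, shn and Mad stand above it, tkv stands below it and dpp, sax and Med are at 0.

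The replicates found most of these peaks. Within 100 bp of the 29 thresholded summits, replicate 1 had a summit at 28, replicate 4 at 27 and both at 26 (89.7%), beside 92.0% of all 4477. The exceptions were the put intronic summit in replicate 1, and 2 shn summits (scores 86.6 and 82.7) in replicate 4. Within 200 bp all 29 had a summit in both, as did 98.3% of all 4477, although summits of overlapping peaks can share a match. Among the 4477 best peaks of both replicates were 20 of the 29 (69.0%), beside 67.9% of the whole list. The thresholded list is itself drawn from both replicates, so these shares describe rank rather than an independent test.

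**Figure D4:**
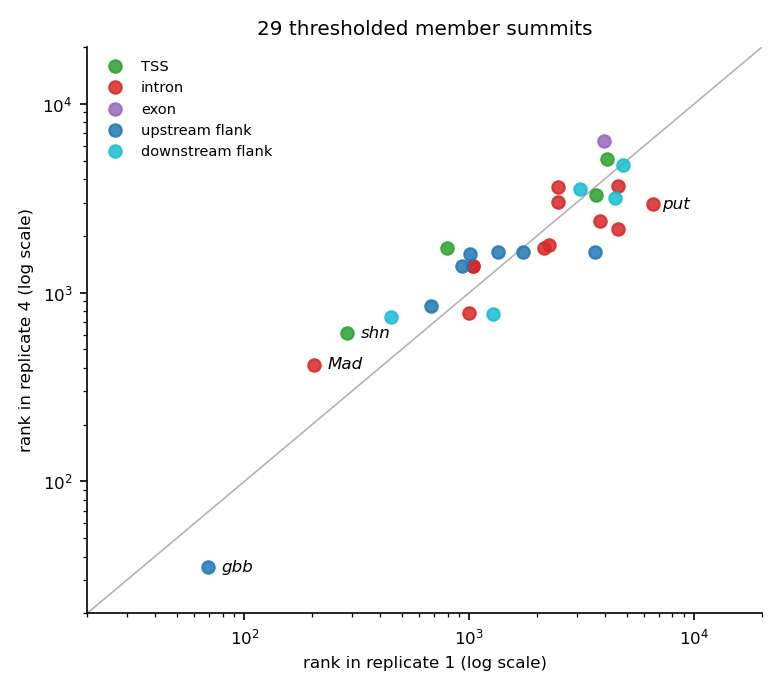
Rank in replicate 4 against rank in replicate 1 of the best summit within 200 bp of each of the 29 thresholded member summits (both axes logarithmic), coloured by position; the line marks equal ranks. Summits of overlapping peaks can take the rank of a stronger neighbour. The Dad summit at 17065626 stands at 1042 and 1385, but had ranks 4545 and 2067 within 100 bp. In replicate 4 the sax summit at 7805871 stands at 1641, but had rank 4085 within 100 bp. The peak beside gbb (ranks 69 and 35) and those of Mad (204 and 414) and shn (285 and 611) stand at the strong end, and put is weaker in replicate 1 (6530) than in replicate 4 (2930).

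The Ovo core site lay within 50 bp of 2 of the 29 summits, beside 14.5% of all 4477 and 2.88% of equal windows placed 500 bp to either side. These 2 were the flank summits at puml and TTLL12, past the end of sax, and at CG9084 and Syx6, past the end of shn. Neither lies inside a member gene. Within 100 bp the count was 4 of 29, beside 20.9% of all summits and 5.9% of the side windows. Stretches with at least 5 of the 6 fixed bases lay within 50 bp of 20 of the 29, but 65.5% of all thresholded summits and 46.8% of the side windows had one as well. The control pattern TNACAGT was found at 1 of 29 (6.9% of all summits), the promoter element TATCGATA at 0 (2.55%) and the GAGA factor's GAGAG at 8 (18.2%). All patterns were read on both strands, and with A at N the control pattern spells a form of the Ovo site, so such a stretch counts for both. Below the threshold, 3 of 108 member summits held the core site, beside 3.69% of 25523.

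Of 39 further genes of the TGF-beta and BMP pathways, listed by role, 8 (20.5%) had a thresholded TSS summit, beside the 23.5% of all genes. None of the 5 other ligands did. Within 5 kb a thresholded summit was present for 0 of these 5, beside 21 of the 39 and 49.7% of all genes. Among these ligands, mav, Actbeta and myo lie on chromosome 4. Of the 2 other receptors wit, a type II BMP receptor, had a TSS summit (score 83.9, rank 3814, at +10 bp), with rank 2786 in replicate 1 and 4547 in replicate 4. Of the 2 other transducers Smox, the Smad of the activin branch, had one at +405 bp (score 210.6, rank 686), with ranks 560 and 1612. Among 17 extracellular modulators there were 3. The proprotein convertase gene Fur1 had the highest TSS summit score of the list (318.0, rank 228, at -211 bp, also within 500 bp of the start of Vps33B), with ranks 197 and 272. The transmembrane protein gene kek5 scored 187.1 (rank 915, at +457 bp, ranks 815 and 1104). The glypican gene dlp scored 152.3 (rank 1370, at -104 bp, ranks 1579 and 1090), at a start it shares with RecQ5. Of 3 negative regulators the ubiquitin ligase gene Smurf had one (score 90.9, rank 3358, ranks 3538 and 3482), also near the start of CG30105. Of 10 targets there were 2 weak ones, at ush (score 78.3, rank 4202), whose protein is a cofactor of GATA factors, and at pnr (score 76.5, rank 4344), which encodes a GATA factor. The replicates differed at ush, with rank 1764 in replicate 1 and 9158 in replicate 4, and were alike at pnr, with 4443 and 4489. Taken from the 4477 best peaks of replicate 4 alone the count fell from 8 to 5, with wit, pnr and ush lost, and from replicate 1 alone it was 10.

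**Figure D5:**
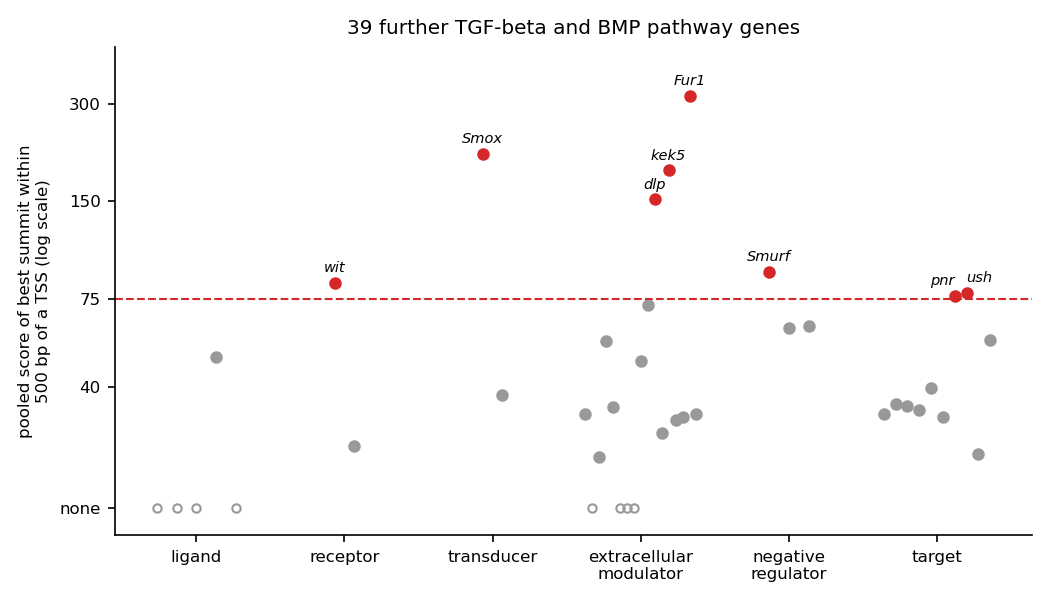
Pooled score of the best summit within 500 bp of a TSS (vertical axis, log scale, authors' units) for the 39 further pathway genes, grouped by role; open circles are genes with none. The dashed line is the lowest score of the thresholded list (74.9), and the 8 red points above it are the genes named.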

How the data were processed

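Per the labels, sonicated chromatin of 200 to 800 bp was precipitated with an antibody against GFP. A text record deposited with the samples describes relaxed lists, made with a control alignment, and a thresholded list derived from them by the irreproducible discovery rate (IDR) procedure. Not given in the sources used here were the IDR limit, the aligner and the caller. The authors deposited a score for each peak, its q-value as −log10, and a summit offset in bp, an other quantity. The q-value stood at its highest in 59.6% of thresholded peaks and was not used for ranks. The thresholded list equals the 4477 best-scored pooled peaks. Coordinates are dm6, 1-based; the dm3 lists were not used. Depth is unknown.

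Summits were placed with Python 3.11.15 and pandas 2.3.3 on Ensembl release 115 genes (19252 coding TSS positions, 11672 coding genes with an intron), and sequences were read from Release 6 of the genome. A summit is intronic when it lies in the gene and in no exon of any of its transcripts. Signed distances are from the gene's nearest TSS, negative upstream. Placement was tested on simulated data. All 10 members were named; pathway genes were named where a thresholded TSS summit existed, and other genes where they lay near a member's summit. Members, gene lists and alternatives were chosen with earlier results of these data known. No p-value was computed. Alternatives were the peak list, the TSS window, the flank, the placement by overlap and each replicate alone.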

Additional observations from a re-analysis of the deposited data

How the results depend on the processing

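Keeping only the 1000 peaks of highest score left 1 member with a TSS summit (shn, beside 6.19% of all genes). It left 2 with an intronic summit (3.16% of genes with an intron) and 5 within 5 kb (17.8%), 7 summits in all. Pathway genes with a TSS summit numbered 3 of 39. The intronic density was 2.02 per 100 kb (0.73 over all genes) and rests on 3 summits. Away from TSSs it was 1.35 (0.426 over all genes), from 2 summits. The whole pooled list gave 9 members with a TSS summit (54.8% of all genes) and 10 within 5 kb (91.8%). Introns of 8 members held a summit (30.2% of genes with an intron). That list also gave 137 summits, a density of 49.2 (23.9 over all genes) and 31 of 39 pathway genes at a TSS. These lists differ in length by construction. A TSS window of 1000 bp gave 6 members, adding sax, Mad and brk, and one of 100 bp gave 2 members and 3 pathway genes. The share of all genes under these windows was not computed, so these counts have no background beside them. The sax summits added, at -613 and -814 bp, lie 305 and 104 bp from the TSS of Nop17l. Placement by any overlap of the peak interval gave 4 members at a TSS, adding sax, beside 25.0% of all genes. It gave 5 members in an intron (14.2% of genes with an intron), 9 within 5 kb (50.4%) and 9 pathway genes at a TSS. With 1 replicate left out, members with a TSS summit numbered 3 to 4, beside 22.7% to 23.4% of all genes. Those with an intronic summit numbered 4 to 5, beside 9.66% to 9.83% of genes with an intron. Within 5 kb the count was 8 to 9, beside 49.1% to 49.7% of all genes. Summits numbered 27 to 28 and the density was 7.41 to 9.43 (3.23 to 3.24 over all genes). Pathway genes with a TSS summit numbered 5 to 10 of 39. Replicate 1 alone held no summit at put among its best peaks. The densities with members left out, such as 3.38 without shn and Dad, were computed after seeing the data. So was the count of 20 summits with at least 5 of 6 fixed bases. Within 100 bp, 4 member summits held the core site. Of 30 counts for single members, 1 moved by over 1.5 times without replicate 1 and 4 did so without replicate 4. No paired analysis was possible because the samples form 1 group. Limits are the unknown depth, the unstated score scale, 2 replicates, whole animals and the lack of an untagged precipitation.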

Other observations

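The genes of this paragraph were chosen after their values were seen. The pathway target ush had 11 thresholded summits within the gene and 5 kb, 6 of them intronic, the best at 2L, 485871 with a score of 499.1 (rank 55). Of these 6, 5 were nearest to the TSS of cbt, 2 of them within 500 bp of it. Snoo, which encodes a Smad-binding protein, had 3 intronic summits and none at a TSS, with scores of 301.7, 190.7 and 81.2; the peaks of 301.7 and 81.2 overlap. Smox had an exonic summit of score 386.2 (rank 130), 607 bp inside the gene. Its peak overlaps that of the Smox TSS summit (score 210.6), so they may not be separate sites. At bam, the differentiation gene that BMP signalling silences, no thresholded summit lay within 500 bp of the TSS, and the best pooled one scored 33.1 (rank 13831). A summit of score 644.2 (rank 20) lay at -2424 bp from the bam TSS and 19 bp from the TSS of the ribosomal protein gene RpS27. The nearest thresholded summit beyond 5 kb of gbb lay 129 bp from the TSS of bgcn, the partner gene of bam (score 83.6, rank 3836).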
